A study of Strongylocentrotus purpuratus with 17 samples.

Results

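The microRNA genes of the purple sea urchin, Strongylocentrotus purpuratus, were examined for the regulatory elements active around them in whole embryos at 8 h, 12 h, 20 h and 72 h of development. All genes of biotype miRNA in the RefSeq annotation of the Spur_5.0 assembly were taken, and 53 of 60 lay on the 21 large scaffolds that could be used, among 30064 genes of all kinds. The elements came from PRO-seq, in which engaged RNA polymerases run on in isolated nuclei and the labelled nascent RNA is sequenced. Each of the 4 stages had 1 list of dREG peaks, that is, stretches recognised as promoters or enhancers from paired divergent transcription. By their titles, the 8 h list rests on 2 libraries of 1 biological replicate and the 12 h list on 4 libraries of 3 replicates. The 20 h list rests on 5 libraries of 4 replicates and the 72 h list on 2 libraries of 2. The embryos were wild genotype, grown at 15 °C, and stages were read from the titles because the field for tissue gives 8 h embryos throughout. Another 4 of the 17 libraries (2 quick PRO-seq libraries of 72 h embryos and 2 of red spherule cells) entered no list used below.

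MicroRNAs are cut in the nucleus from hairpins in long primary transcripts made by RNA polymerase II, and the mature RNA then guides Argonaute proteins to messenger RNAs, which are repressed. The annotated gene is the hairpin alone. The promoter of the primary transcript can lie far from it, and several hairpins can share one transcript or sit in an intron of a host gene. In sea urchin embryos microRNAs are known to act in the networks that specify skeleton, nervous system and endoderm.

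The lists held 56158, 30570, 37796 and 4425 elements at 8 h, 12 h, 20 h and 72 h, given by position alone, which leaves the sequencing depth at each element unknown. Libraries were pooled in each list, so no value here has a replicate error, no test between stages was possible. Intervals after shares are Wilson 95% intervals for counting error alone. They take genes as independent, which close neighbours are not, and so can be too narrow. The labels give the libraries of 12 h and 20 h as taken from earlier work, and a difference of either stage from 8 h or 72 h cannot be told apart from a difference between these sets of libraries. In whole embryos, an element active in few cells and one weakly active in many cannot be told apart either. The gene table gave no scaffold and no strand, and scaffolds were inferred from the 8 h elements, so positions below are on an inferred scaffold and distances are toward lower (negative) or higher coordinates.

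The 53 hairpin genes were 57 to 110 bp long, with a median of 94 bp, and lay on 18 scaffolds. NW_022145612.1 alone carried 10. Genes within 10 kb of each other were taken as 1 locus, which gave 44 loci, 38 with a single gene and 6 with several. Mir92a, Mir92c and Mir92b lay 348 and 1573 bp apart (NW_022145612.1, 26944510 to 26946732). Mir92e and Mir92d lay 468 bp apart on the same scaffold (15043365 to 15043952). Mir183, Mir96 and Mir182, a sensory organ family in vertebrates, formed another group there, 1446 and 3359 bp apart (25936377 to 25941433). The remaining groups were Mirlet7 with Mir125 (863 bp apart), Mir34 with Mir2002 (4968 bp) and Mir2001 with Mir252b and Mir252a (7115 and 1278 bp). Mir2003 lay 19482 bp from Mirlet7 and was counted as its own locus. Members of a group share most of their surroundings, so their counts are not independent of each other.

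Of the 53 genes, 22 lay inside a protein-coding gene, 1 inside a long noncoding RNA gene (Mir2001, in LOC115923951) and 30 between other genes. The 7 genes outside the large scaffolds, Mir184, Mir2005, Mir2009, Mir242, Mir29a, Mir29b and Mir31, were not analysed here. Mir31 is the member best known from the sea urchin skeleton, and no result below bears on it.

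Elements lay near most microRNA genes at 8 h and 20 h, near fewer of them at 12 h and near the fewest at 72 h. An element was nearby when its midpoint fell in the gene or at most 10 kb outside it, a stretch called the neighbourhood. At 8 h, 42 of 53 genes had an element in the neighbourhood (79.2%, interval 66.5 to 88.0), where 84.9% of all genes had one. At 12 h there were 23 (43.4%, 31.0 to 56.7), against 69.4% of all genes. At 20 h there were 38 (71.7%, 58.4 to 82.0), against 68.4%, and at 72 h 11 (20.8%, 12.0 to 33.5), against 20.6%. The share was thus lower than among all genes at 12 h, beyond the counting error, and within it of all genes at the 3 other stages.

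All genes are a loose standard, since most are much longer than a hairpin and so have wider neighbourhoods. Windows of the same 10 kb either side were therefore set on both ends of every protein-coding gene, which held an element in 74.0%, 55.5%, 57.1% and 14.3% of cases at 8 h, 12 h, 20 h and 72 h. Against these ends the microRNA genes were the higher at 8 h, 20 h and 72 h and the lower at 12 h. The ends' value lay outside their interval at 20 h alone. That interval takes the genes as independent, although members of a group share surroundings. Counted by locus, 29 of 44 had an element nearby at 20 h (65.9%), closer to the ends' value, and no interval is given for loci. Among other short genes, the 954 tRNA genes had an element nearby in 97.0%, 88.5%, 85.0% and 34.9% of cases in the same order. The 256 snRNA genes had 72.3%, 64.5%, 37.5% and 12.5%, and the 101 snoRNA genes 64.4%, 60.4%, 63.4% and 22.8%. The microRNA genes thus had the lowest share of these 5 sets at 12 h and the second highest, after tRNA genes, at 8 h and 20 h.

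**Figure D1:**
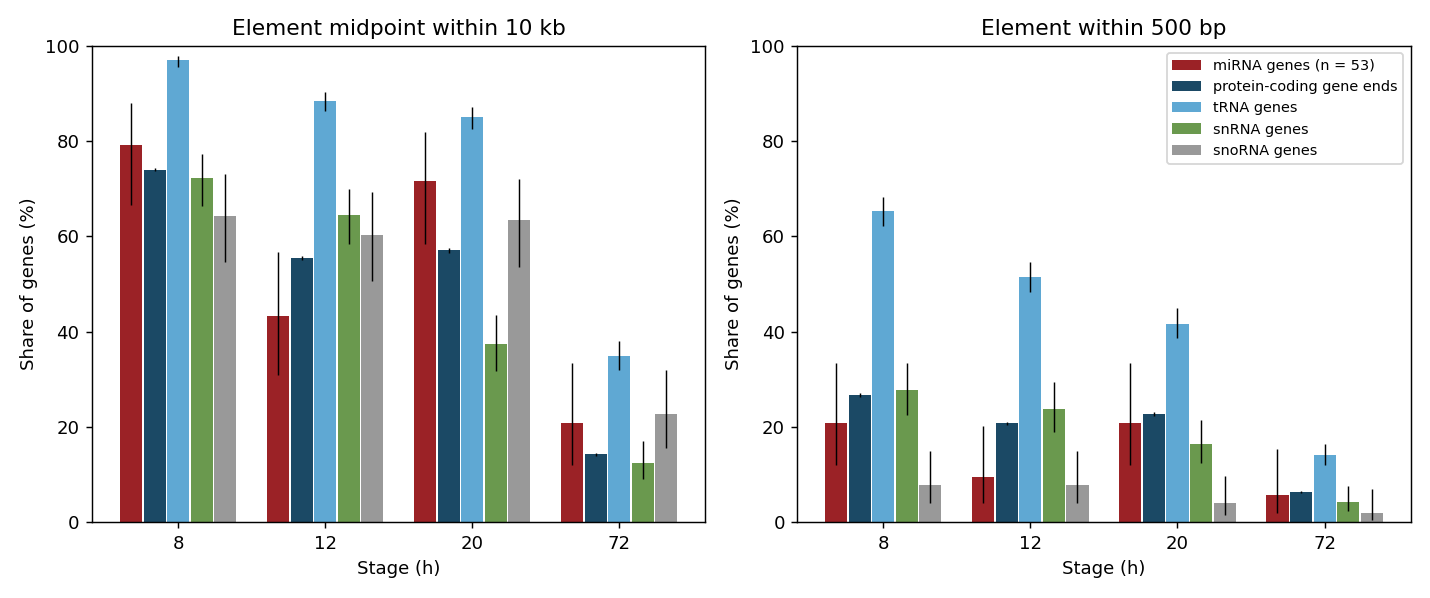
Share of genes (%, y axis) with an element whose midpoint lay within 10 kb (left) or with an element within 500 bp (right) at each stage (h, x axis), for 53 miRNA genes, the ends of protein-coding genes and tRNA, snRNA and snoRNA genes. Bars are shares and error bars Wilson 95% intervals, and within 10 kb the miRNA genes stand at 79.2%, 43.4%, 71.7% and 20.8%.

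The mean number of elements in the neighbourhood was 1.91, 0.92, 1.79 and 0.34 at 8 h, 12 h, 20 h and 72 h. Protein-coding gene ends had means of 1.50, 0.91, 1.06 and 0.17. The mean at 20 h was 0.94 of that at 8 h for microRNA genes and 0.71 for protein-coding gene ends. For tRNA, snRNA and snoRNA genes that ratio was 0.60, 0.42 and 0.84. Set against the average density of elements on the 21 scaffolds over a window of the same length, microRNA neighbourhoods held 1.51, 1.34, 2.07 and 3.26 times as many. Without Mir92a, Mir92b and Mir92c, a choice made after seeing the data, these ratios were 1.28, 0.84, 1.57 and 1.92. At 12 h the other 50 genes thus lay below the scaffold average. The mean numbers of these 50 genes were 1.62, 0.58, 1.36 and 0.2 in the same order. Their 12 h mean was below that of protein-coding gene ends. Their 20 h mean lay further below their 8 h mean than it did for all microRNA genes.

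**Figure D2:**
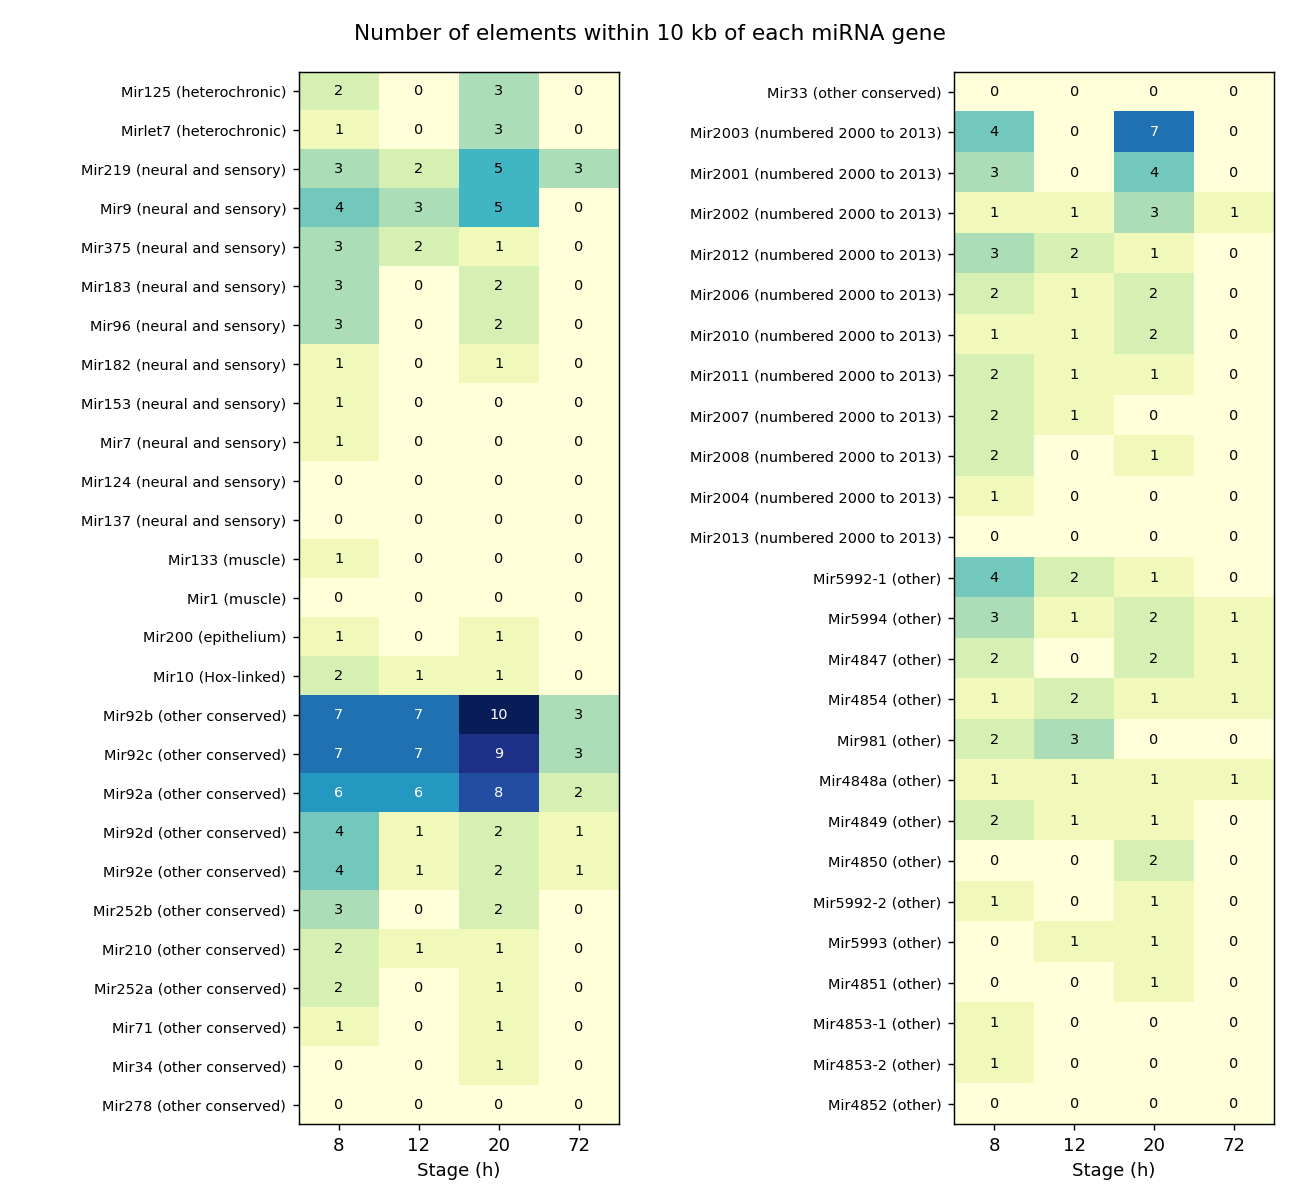
Number of elements (printed and shaded) within 10 kb of each of the 53 miRNA genes (rows, with the group each was placed in) at 8, 12, 20 and 72 h (columns). Mir92a, Mir92b and Mir92c hold the highest numbers at every stage but 72 h, where Mir219 equals Mir92b and Mir92c at 3, and the 12 h column is 0 for 30 genes.

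Most genes that differed between 12 h and 8 h had fewer elements at 12 h. At 12 h, 34 of 53 genes had fewer elements than at 8 h (64.2%, 50.7 to 75.7), where 57.5% of all genes had fewer, and 3 had more (5.66%), where 9.22% of all genes had more. Mir981, Mir4854 and Mir5993 were the 3. No element was nearby at 12 h and some at 8 h for 20 genes (37.7%, 25.9 to 51.2), against 17.9% of all genes, and the opposite held for 1 (1.89%), against 2.33%. Both stages had one for 22 (41.5%), against 67.1%. The shares with fewer and with more lay near those of all genes. The share with an element at 8 h and none at 12 h lay above that of all genes, beyond the counting error. Protein-coding gene ends had fewer in 45.9% of cases, below the interval for microRNA genes, and more in 8.74%. They had an element at 8 h and none at 12 h in 21.8%, also below the interval. Counted by locus, 28 of 44 had fewer (63.6%), with no interval given.

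At 20 h against 12 h, 28 genes had more elements at 20 h (52.8%, 39.7 to 65.6), against 31.5% of all genes, and 6 had fewer (11.3%, 5.3 to 22.6), against 23.3%. Protein-coding gene ends had more in 25.4% and fewer in 18.4% of cases, tRNA genes in 27.4% and 36.1%, snRNA genes in 8.20% and 37.1% and snoRNA genes in 26.7% and 12.9%. With each locus counted once, 19 of 44 loci had more (43.2%) and 6 fewer (13.6%). The microRNA genes had the largest share with more elements among these sets, whether genes or loci were counted. The locus share was nearer that of all genes than the gene share was, and no interval is given for it. A locus also pools the neighbourhoods of its genes, and the other sets were not grouped into loci. Of the 28 genes, 17 had none at 12 h, which is 32.1% of the 53 (21.1 to 45.5), against 8.52% of all genes. The opposite, an element at 12 h and none at 20 h, held for 2 of the 53 (3.77%), against 9.49%, and both stages had one for 21 (39.6%), against 59.9%.

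At 72 h against 20 h no microRNA gene had more elements, where 0.406% of all genes had, and 36 had fewer (67.9%, 54.5 to 78.9), where 63.9% of all genes had. These shares, like the next ones, were near those of all genes. At 72 h, 27 genes had none where they had some at 20 h (50.9%, against 48% of all genes), and 11 had some at both (20.8%, against 20.4%). None had an element at 72 h without one at 20 h, against 0.163% of all genes. Protein-coding gene ends had fewer elements at 72 h in 52.0% of cases, below the interval for microRNA genes. They had some at 20 h and none at 72 h in 43.0%, inside the interval of 37.9 to 63.9. Counted by locus, 27 of 44 had fewer (61.4%), nearer the ends' value than the gene share was, and no interval is given for it.

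For 2 of these 3 pairs of stages the direction reversed when the 4425 widest elements of each list were kept, which made all lists equally long. Then 5 microRNA genes (9.43%) had more and 2 (3.77%) fewer elements at 12 h than at 8 h, where 8.54% of all genes had more and 8.07% fewer. At 20 h against 12 h, 7 (13.2%) had more and 3 (5.66%) fewer, where 8.29% of all genes had more and 8.89% fewer. At 72 h against 20 h, 7 (13.2%) had more and 2 (3.77%) fewer, where 10.9% of all genes had more and 10.5% fewer. An element of these lists was near 9.43% of microRNA genes at 8 h (4.1 to 20.3), against 21.4% of all genes, near 15.1% at 12 h, against 21.5%, and near 17.0% at 20 h, against 20.5%. This cut changed the number and the width of the elements together, keeping those of at least 1240, 1100, 1100 and 260 bp at 8 h, 12 h, 20 h and 72 h. Keeping the wider elements of each list, down to its own median width, left both directions as they were. Genes with more minus genes with fewer came to -22 for 12 h against 8 h and -20 for 72 h against 20 h. That setting left the lists about as unequal in length as before, so it cannot show what equal lengths would give.

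**Figure D3:**
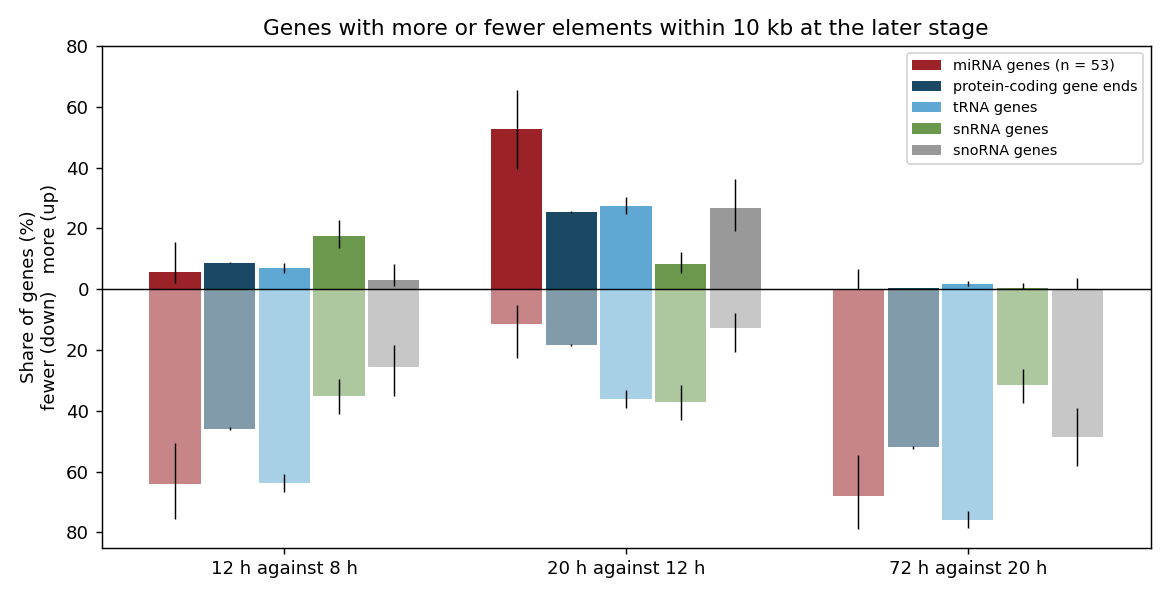
Share of genes (%, y axis) with more elements (upward bars) or fewer elements (paler downward bars) within 10 kb at the later than at the earlier stage, for 3 pairs of stages (x axis) and 5 sets of genes. Error bars are Wilson 95% intervals, and at 20 h against 12 h the miRNA genes have 52.8% with more and 11.3% with fewer.

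A pattern of elements at 8 h and at 20 h with none at 12 h was found at 14 of 53 genes (26.4%, 16.4 to 39.6), against 6.64% of all genes and 7.62% of protein-coding gene ends. Counted by locus it was 9 of 44 (20.5%), nearer both of these values than the gene share was, and no interval is given for it. The pattern was singled out after the values had been seen. The 14 were Mirlet7 and Mir125, Mir183, Mir96 and Mir182, Mir2001, Mir252b and Mir252a, and by themselves Mir200, Mir2003, Mir2008, Mir4847, Mir5992-2 and Mir71. A further 10 genes had elements at 8 h, 12 h and 20 h but not at 72 h, and 10 at every stage (18.9%, against 20.1% of all genes). Another 6 had them at 8 h alone, 3 at 20 h alone, 2 at 8 h and 12 h and 1 at 12 h and 20 h. The share of all genes was not computed for these patterns, nor for 8 h, 12 h and 20 h without 72 h. Those counts therefore show nothing particular to microRNA genes. Mir1, Mir124, Mir137, Mir2013, Mir278, Mir33 and Mir4852 had none at any stage (7 genes, 13.2%, against 10.8%).

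The let-7 group showed that pattern. The let-7 microRNA times the passage to later stages in the nematode Caenorhabditis elegans, and mir-125 is related to its partner lin-4 there. Mirlet7 (NW_022145594.1, 27043749 to 27043849) had 1, 0, 3 and 0 elements in its neighbourhood at 8 h, 12 h, 20 h and 72 h, and Mir125 had 2, 0, 3 and 0. The 3 elements at 20 h were the same for both genes, all at higher coordinates, and centred 4886, 6786 and 8256 bp from Mirlet7. The nearest 12 h element lay 21781 bp away and the nearest 72 h element 212208 bp away.

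Mir2003 (NW_022145594.1, 27024177 to 27024266), on the lower side of this pair, had 4, 0, 7 and 0 elements. Its 20 h elements lay on both sides, centred at -9336, -4241, -2366, -1566, -501, 5029 and 6754 bp. The elements at -9336, -4241, -1566 and 5029 bp overlapped elements centred at -9361, -4366, -1566 and 5159 bp at 8 h, and the 3 others were at 20 h alone. All of these lay between genes, away from any other gene's end.

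**Figure D4:**
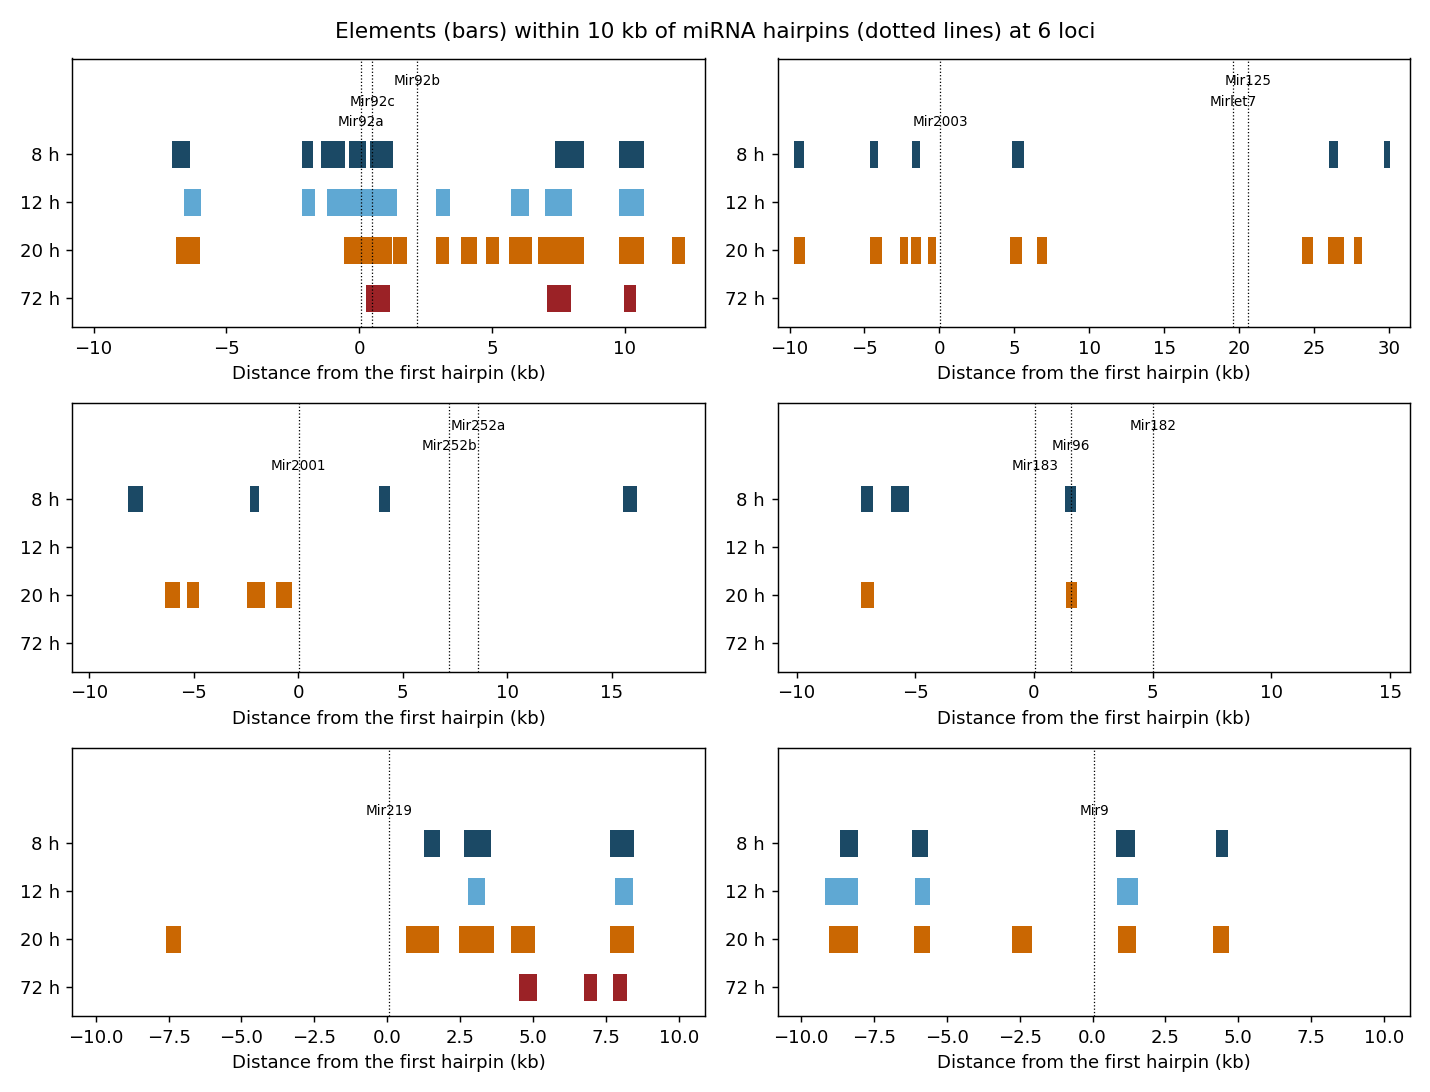
Elements (bars, to scale) within 10 kb of the hairpins (dotted lines) at 6 loci, with the distance from the first hairpin in kb on the x axis and the 4 stages as rows. The Mir2003, Mir2001 and Mir183 loci have no bar at 12 h or 72 h, while the Mir92a locus has a bar over at least 1 hairpin at every stage.

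The neural and sensory group, named for what these microRNAs do in vertebrates or flies, had 10 placed members. Elements were nearby for 8, 3, 6 and 1 of them at the 4 stages (80%, 30%, 60% and 10%). All genes had 84.9%, 69.4%, 68.4% and 20.6%, outside the group's interval at 12 h alone (10.8 to 60.3). Protein-coding gene ends had 74.0%, 55.5%, 57.1% and 14.3%, inside it at every stage. Mir9 (NW_022145615.1, 10964588 to 10964688), which acts in neural progenitors of vertebrates, had 4, 3, 5 and 0 elements. The 3 elements at 12 h, centred at -8607, -5837 and 1087 bp, had counterparts at 8 h and 20 h, and an element at -2407 bp was listed at 20 h alone.

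Mir219 (NW_022145610.1, 25977830 to 25977930), which promotes myelinating glia in vertebrates, had 3, 2, 5 and 3 elements. It was the only member of the neural group with elements at 72 h. Its 72 h elements were centred at 4735, 6865 and 7865 bp. The first was also listed at 20 h, the third at all 4 stages, and the element at 6865 bp was the only one around any microRNA gene that was listed at 72 h alone.

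Mir375 (NW_022145604.1, 21884822 to 21884921), known from hormone-secreting cells of vertebrates, had 3, 2, 1 and 0 elements. Its hairpin was overlapped by an element of 960 bp at 8 h and 630 bp at 20 h, and the nearest 12 h element lay 4741 bp away. Mir96 was overlapped in the same 2 stages, by elements of 480 and 450 bp, and Mir183 and Mir182 were within 10 kb of that same element. Mir183 and Mir96 had 3, 0, 2 and 0 elements and Mir182 had 1, 0, 1 and 0. Mir153 and Mir7 had 1 element at 8 h and none later, and Mir124 and Mir137, which act in neurons of vertebrates, had none.

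The 2 genes of the muscle microRNAs of flies and vertebrates had 1 element nearby between them, at 8 h. Of all genes, 10.8% had none at any stage, so 2 genes show no trait of this group. Mir1 (NW_022145598.1, 7279901 to 7279996) had none, with the nearest 27310, 152114, 18190 and 19540 bp away at 8 h, 12 h, 20 h and 72 h. Mir133, 101033 bp from it, had 1 element at 8 h, centred at 5380 bp, and none afterwards. Mir200, which maintains epithelial cells in vertebrates, had 1, 0, 1 and 0, the 8 h element at -5344 bp and the 20 h element at -8689 bp.

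Mir10 is encoded in Hox clusters of many animals, and here it lay on the same run of the annotation as hox1 and Hbox7, 365944 and 109838 bp beyond their ends. Mir10 (NW_022145612.1, 38277823 to 38277932) had 2, 1, 1 and 0 elements. An element overlapped the hairpin at 8 h, 12 h and 20 h, 1380, 900 and 530 bp wide.

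The Mir92 genes belong to a seed family that vertebrates carry in a polycistron tied to cell proliferation, and their larger group held the most elements of all. Mir92a had 6, 6, 8 and 2 elements, Mir92c 7, 7, 9 and 3, and Mir92b 7, 7, 10 and 3. The highest counts at this locus, 7, 7, 10 and 3, were reached or exceeded by 3.86%, 0.772%, 0.669% and 0.842% of all genes at 8 h, 12 h, 20 h and 72 h. Most of those genes have wider neighbourhoods than a hairpin. Among protein-coding gene ends, with 10 kb either side, the highest counts were 9, 10, 12 and 7. Mir92c was the only hairpin overlapped by an element at all 4 stages, by elements of 870, 2610, 1800 and 880 bp. The 2610 bp element at 12 h was the widest in any microRNA neighbourhood and covered Mir92a too. Of the 9 regions near microRNA genes that were listed at every stage, 3 lay at this locus.

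The smaller group, Mir92e and Mir92d, lay inside LOC583151, 7894 and 7367 bp from its nearer end. Both had 4, 1, 2 and 1 elements. The element present at every stage, with its centre 7385 bp from Mir92e at 8 h, lay at the host's end, and at 8 h alone an element of 510 bp overlapped Mir92d. The larger locus thus had 7, 7, 10 and 3 elements around it and the smaller 4, 1, 2 and 1, with more around the larger at every stage.

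The other conserved microRNAs had fewer. Mir252b had 3, 0, 2 and 0 elements and Mir252a 2, 0, 1 and 0. Mir210, induced by low oxygen in mammals, had 2, 1, 1 and 0, and Mir71, which affects lifespan in nematodes, 1, 0, 1 and 0, the first of them 79 bp from the hairpin. Mir34, a target of the p53 tumour suppressor in mammals, had 0, 0, 1 and 0. Mir33 (host LOC590876) and Mir278 had none within 10 kb, though the host of Mir33 had an element at one of its ends at all 4 stages and Mir33's nearest lay 11208, 14051, 11451 and 13991 bp away.

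The microRNAs numbered from Mir2001 to Mir2013, to which no role is given here, had 11 placed members. Elements were nearby for 10, 6, 8 and 1 of them at 8 h, 12 h, 20 h and 72 h (90.9%, 54.5%, 72.7% and 9.09%). All genes had 84.9%, 69.4%, 68.4% and 20.6%, inside the group's interval at every stage, as were the values of protein-coding gene ends. Beside Mir2003, the highest was Mir2001 (NW_022145600.1, 468202 to 468272) with 3, 0, 4 and 0. At 20 h its elements were centred at -6016, -5031, -2011 and -671 bp, and that at -2011 bp lay at the end of its host gene, as did one at 8 h. Mir2002 had 1, 1, 3 and 1 and was the only one of the 11 with an element at 72 h.

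Mir2012 had 3, 2, 1 and 0 elements, within 500 bp of the hairpin at 8 h and 12 h. Mir2006 had 2, 1, 2 and 0, Mir2010 1, 1, 2 and 0, Mir2011 2, 1, 1 and 0 and Mir2007 2, 1, 0 and 0. Mir2008 had 2, 0, 1 and 0 and Mir2004 had its single element at 8 h. The group thus held genes with most elements at 8 h (Mir2012, Mir2007) beside genes with most at 20 h (Mir2003, Mir2001, Mir2002).

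The remaining 14 genes, likewise given no role, had an element nearby in 10, 7, 10 and 4 cases (71.4%, 50%, 71.4% and 28.6%). The values of all genes, 84.9%, 69.4%, 68.4% and 20.6%, lay inside the intervals of this set, as did those of protein-coding gene ends. Mir5992-1 (NW_022145603.1, 27965276 to 27965340) had 4, 2, 1 and 0 elements and its hairpin was overlapped at 8 h, 12 h and 20 h. Its second copy, Mir5992-2, had 1, 0, 1 and 0. Mir981 had 2, 3, 0 and 0, the largest deficit at 20 h against 12 h among the 53. Mir4850 was the reverse, with 0, 0, 2 and 0 and its hairpin overlapped at 20 h. Mir4847 had 2, 0, 2 and 1, with an element within 500 bp at 8 h, 20 h and 72 h, where at 72 h it was 62 bp away.

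Of the other members of that set, Mir5994 had 3, 1, 2 and 1 elements, Mir4854 1, 2, 1 and 1 and Mir4848a 1 at each stage. All 3 kept an element at the end of another gene, or of their host, through the 4 stages. Mir4849 had 2, 1, 1 and 0, and Mir5993 0, 1, 1 and 0. Mir4851 had 1 element at 20 h alone, and Mir4853-1 and Mir4853-2 had 1 at 8 h alone.

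Fewer genes had an element in the smaller window next to the hairpin. An element lay within 500 bp, by any overlap, of 11, 5, 11 and 3 genes at 8 h, 12 h, 20 h and 72 h (20.8%, 9.43%, 20.8% and 5.66%). Among all genes the shares were 59.8%, 46.4%, 47.2% and 12.6%, a count that takes in the whole gene body. Around single protein-coding gene ends they were 26.7%, 20.8%, 22.7% and 6.33%, so the microRNA genes were lower at all 4 stages. At 12 h the ends' value lay just outside the interval of 4.1 to 20.3. Of the 5 genes at 12 h, Mir92a and Mir92c lay under the same element. By locus the count was 4 of 44 (9.09%), for which no interval is given. The tRNA genes had 65.3%, 51.6%, 41.7% and 14.0%, above the microRNA genes at all 4 stages, and the snoRNA genes 7.92%, 7.92%, 3.96% and 1.98%, below them at all 4. The snRNA genes had 27.7%, 23.8%, 16.4% and 4.30%, above them at 8 h and 12 h and below them at 20 h and 72 h.

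The hairpin itself was overlapped in 7, 4, 7 and 1 of 53 genes, and in 8 genes at any stage, namely Mir10, Mir375, Mir4850, Mir5992-1, Mir92a, Mir92c, Mir92d and Mir96. The median distance from a hairpin to its nearest element was 3734, 12554, 5892 and 34803 bp. Pairs of a gene and an element within 2 kb numbered 25 at 8 h and 22 at 20 h, or 0.118 and 0.104 per gene and kb. Between 8 and 10 kb the density was 0.0755 and 0.0849 per gene and kb, against scaffold averages of 0.0628 and 0.0431. At 20 h each of the 5 bins of 2 kb lay above the average, from 0.0755 to 0.104. Pairs count an element once for each gene near it, and Mir92a, Mir92c and Mir92b share theirs. The 20 h element overlapping Mir92a and Mir92c, for example, was centred 221, -127 and -1801 bp from them in that order. The bins were not recomputed without this locus, so no gradient toward the hairpin can be read from them.

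**Figure D5:**
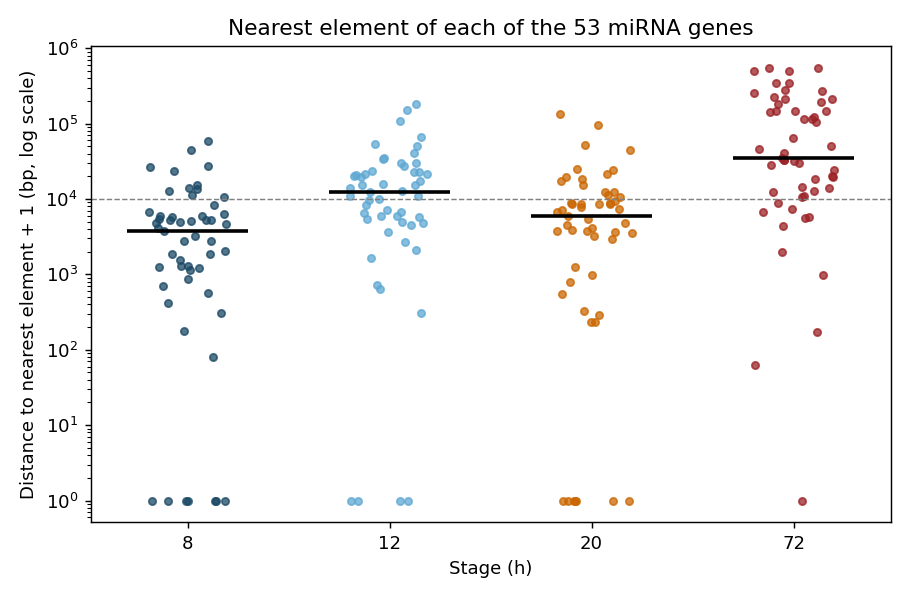
Distance from each of the 53 miRNA genes to its nearest element plus 1 (bp, log scale, y axis) at each stage (h, x axis), with 1 point per gene, a bar at the median and a dashed line at 10 kb. Medians are 3734, 12554, 5892 and 34803 bp, and points at the bottom are hairpins overlapped by an element.

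Most elements around microRNA genes were not at the end of another gene. Counting an element once, there were 75, 35, 66 and 12 in the neighbourhoods at the 4 stages. Of these, 10, 8, 12 and 4 lay within 500 bp of an end of a gene other than a microRNA gene, which is 13.3%, 22.9%, 18.2% and 33.3%. Over all elements on the 21 scaffolds the shares were 26.9%, 37.0%, 32.2% and 66.8%. The value for all elements lay outside the intervals of the microRNA neighbourhoods at 8 h (7.41 to 22.8), 20 h (10.7 to 29.1) and 72 h (13.8 to 60.9), and inside at 12 h (12.1 to 39.0). Median widths were 640, 620, 615 and 575 bp, against 640, 660, 630 and 560 bp for all elements.

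Joined across stages, the elements formed 104 regions, 24 of them shared by the neighbourhoods of several microRNA genes. A single stage listed 55 of them, while 27 were listed at 2 stages, 13 at 3 and 9 at all 4. The commonest patterns were 8 h alone (29 regions, 27.9%), 20 h alone (22, 21.2%) and 8 h with 20 h (15, 14.4%). Over all regions of the 21 scaffolds these patterns made up 34.3%, 17.1% and 7.98%, and 8 h with 12 h and 20 h, at 11.5% here, made up 17.0%. The interval for 8 h with 20 h was 8.94 to 22.4, so the value over all regions fell outside it, while the intervals for 8 h alone and for 20 h alone contained theirs. Of the 9 regions at all 4 stages, 4 lay at the end of another gene.

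By the share with an element nearby, genes between other genes and genes inside a host differed most at 12 h. Between genes, 23, 9, 22 and 6 of 30 had an element nearby, and inside a gene 19, 14, 16 and 5 of 23. At 12 h this was 30% (16.7 to 47.9) against 60.9% (40.8 to 77.8), with intervals that overlap. At 20 h against 12 h, 18 of 30 between genes had more and 1 fewer, and inside a gene 10 of 23 had more and 5 fewer. At 20 h an element lay within 500 bp of 9 of 30 and of 2 of 23. No test of these differences was made.

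The 22 genes inside protein-coding genes had 20 hosts. The hosts were long, with a median of 45723 bp against 10226.5 bp for all protein-coding genes. An element lay within 500 bp of a host's end in 10, 9, 10 and 6 of 20 cases at 8 h, 12 h, 20 h and 72 h (50%, 45%, 50% and 30%). Over all protein-coding genes the shares were 49.5%, 39.6%, 43.2% and 12.4%, and the last lay outside the hosts' interval of 14.5 to 51.9. The hosts with an end element at 72 h held Mir33, Mir2011, Mir2012, Mir5993, Mir5994 and Mir92d with Mir92e.

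Among proteins of the microRNA pathway, 16 names were searched by symbol and 2 placed genes were found, ago1 and ago1b, which encode Argonaute proteins. They lay on the same scaffold, NW_022145613.1 (14680701 to 14711504 and 14774491 to 14809577). ago1 had 2, 2, 1 and 0 elements in its neighbourhood at the 4 stages and ago1b 4, 2, 2 and 0. Both had an element within 500 bp of an end at 8 h, 12 h and 20 h and not at 72 h. Other pathway genes, which the table may list under locus numbers alone, were not analysed here.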

How the data were processed

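The 4 deposited lists hold 3 columns each, scaffold, start and end, in steps of 10 bp. Per the labels they are dREG peaks on the Sp 5.0 genome, 1 list per stage named by all PRO-seq libraries of that stage. How reads were aligned, how libraries were combined and which settings dREG ran with is not stated in the labels. The RefSeq gene table lists genes in runs of rising start. Runs of 900 or more genes were assigned the scaffold whose 8 h elements met the largest share of gene ends within 500 bp, giving 30064 of 33503 genes a scaffold. The best scaffold met 18.8% to 33.6% of ends, the runner-up 8.30% to 14.2%, and the 12 h, 20 h and 72 h lists chose the same scaffold for 21 of 21 runs. Counting used Python 3.11.15, numpy 2.4.6, pandas 2.3.3 and scipy 1.17.1 and was tested on simulated scaffolds. An overlap meant at least 1 bp. The rule for named genes took the 10 with most elements, the 5 largest differences each way between stages, those with an element at 72 h or with none at any stage, and the role lists, and the remaining members are given briefly. The members and lists were chosen with earlier results of these data known.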

Additional observations from a re-analysis of the deposited data

How the results depend on the processing

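No paired analysis was possible because each stage has 1 pooled list, so replicates could be neither paired nor left out, and no test was made. Of 190 recomputed values 142 stayed within the counting interval of the value reported, or kept their direction, 46 moved and 2 reversed. Joining elements 100 bp or less apart, counting by overlap, other distances near 500 bp and placing scaffolds by the 20 h list moved none. Counting each locus once, with the elements around any of its genes, also moved none, nor did leaving out Mir92a, Mir92b and Mir92c. Differences from other sets of genes were not part of this count. The lists of equal length moved 10 and reversed 2 of 17 values, more than any other setting. Within 2 kb, 37.7%, 15.1%, 28.3% and 7.55% of genes had an element at 8 h, 12 h, 20 h and 72 h, within 5 kb 54.7%, 22.6%, 45.3% and 11.3%, and within 20 kb 90.6%, 64.2%, 86.8% and 35.8%. Shares with more and fewer elements were 0% and 26.4% (12 h against 8 h), 20.8% and 3.77% (20 h against 12 h) within 2 kb, with 26.4% fewer at 72 h. They were 0% and 47.2%, then 39.6% and 3.77%, and 45.3% fewer at 72 h within 5 kb. Within 20 kb 83.0% had fewer at 12 h, 66.0% more at 20 h and 81.1% fewer at 72 h. These shares follow from the window's size.

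With only the wider elements of each list, down to its median width, the 10 kb shares were 62.3%, 26.4% and 41.5% at 8 h, 12 h and 20 h, the 500 bp share was 7.55% at 20 h, 45.3% had fewer at 12 h, 28.3% more at 20 h and 39.6% fewer at 72 h. With the 4425 widest elements of each list the 10 kb shares were 9.43%, 15.1% and 17.0% at 8 h, 12 h and 20 h, and the 500 bp shares 1.89%, 3.77% and 3.77%, where all genes had 21.4%, 21.5% and 20.5%, and 13.2%, 13.3% and 12.9%. Then 3.77% had fewer at 12 h, 13.2% more at 20 h, and at 72 h 13.2% had more and 3.77% fewer. Genes with more minus genes with fewer came to 3 at 12 h against 8 h and 5 at 72 h against 20 h, reversed from -31 and -36. The cause was not tested. Among genes between other genes, 30% had an element at 12 h, 0% had more at 12 h and 3.33% fewer at 20 h. Without the 72 h list, 20.4% of regions were called at every stage. No depth is known for any element.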
